A study of Homo sapiens with 9 samples.

Results

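ChIRP-seq peaks on chromosomes 16 and 17 of K562 cells were examined, apart from the alpha-globin window of chromosome 16 (bases 100000 to 300000). In ChIRP, biotinylated oligonucleotides pull down an RNA together with the chromatin crosslinked to it. K562 is an established line that the authors describe as human erythroleukemia cells. The cells were fixed with glutaraldehyde and sonicated, with no treatment named. Of 9 samples, 3 were input without probes and were not analysed here, 3 were pulled down with probes against the long non-coding RNA SRA and 3 with probes against LacZ, a bacterial transcript that human cells lack. One list of MACS peaks in hg19 coordinates was deposited for each of the 6 pulled-down samples. The members were all peaks with chromosome 16 or 17 as their chromosome, chosen by position and not by any measured value. They numbered 1899 of the 20698 peaks in the 6 lists. Overlapping peaks of the 3 SRA lists were merged into 811 distinct SRA regions on these chromosomes, of 8658 in the genome. A further 8 peaks lay in the alpha-globin window, at 3 distinct SRA positions among others, and were left out.

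SRA, the steroid receptor RNA activator, is known as a coactivator RNA of nuclear receptors and as a partner of the chromatin architectural protein CTCF, which anchors chromatin loops, and of complexes that methylate histone H3. Chromosomes 16 and 17 are among the human chromosomes rich in genes. The short arm of chromosome 16 ends near the alpha-globin cluster, and its long arm begins with a block of heterochromatin. Chromosome 17 carries the HOXB and type I keratin clusters on its long arm. In the RefSeq annotation of GRCh38.p14, chromosome 17 held 1169 protein-coding genes, or 14.1 per Mb up to its last such gene, rank 2 of the 23 chromosomes 1 to 22 and X. Chromosome 16 held 854, or 9.48 per Mb, rank 4 of 23. The description of both as gene-dense therefore holds by these counts. The annotation used here is not in the hg19 coordinates of the peaks, so peaks were not assigned to genes and no sequence under a peak is shown.

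The SRA lists are not independent measurements of these chromosomes. On chromosomes 16 and 17, SRA lists 1 and 2 shared 253 overlapping peaks, lists 1 and 3 shared 278, and lists 2 and 3 shared 270. Start and end were identical in all of these overlaps, so the spread of the SRA lists is given as a range and not as a replicate error. LacZ list 3 also stands apart, with 290 peaks in the genome and a median width of 1060.5 bp on chromosomes 16 and 17, against 152 bp and 151 bp in LacZ lists 1 and 2. The depth of sequencing is unknown, since the files give no read counts.

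Chromosome 16 held a larger share of the SRA peaks than of the LacZ peaks, and chromosome 17 held much the same share of each. On chromosome 16 lay 241, 243, and 256 peaks in SRA lists 1, 2, and 3, which are 4.84, 4.91, and 4.94% of each list. The LacZ lists held 108, 93, and 11 peaks there, or 4.04, 3.55, and 3.79% of each list. All 3 SRA shares thus exceeded all 3 LacZ shares, with a mean share of 4.90% against 3.79 ± 0.241% (SD, n = 3), a ratio of 1.29 (two-sided exact permutation test, p = 0.1, the smallest that 3 lists against 3 allow, and 0.2 after Benjamini-Hochberg adjustment over 4 shares). Among chromosomes 1 to 22 and X, SRA shares that all exceeded the LacZ shares were found for 4 of 23, or 17.4%. With the SRA lists counted as 1 sample, the exact permutation p was 0.25, the smallest that 1 against 3 allows. With 290 highest-scoring peaks taken from every list, the shares were 4.48% and 4.37%, a difference of 0.115 points (exact permutation p = 1), and the groups overlapped. By counting error alone (95% Wilson intervals), SRA lists 2 and 3, with lower bounds of 4.34 and 4.38%, did not overlap LacZ list 2, with an upper bound of 4.33%, and every other pair of an SRA and a LacZ list overlapped.

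On chromosome 17 lay 230, 218, and 248 SRA peaks, or 4.62, 4.41, and 4.78% of lists 1, 2, and 3. The LacZ lists held 112, 124, and 15 peaks, or 4.19, 4.74, and 5.17%. The ranges overlapped, and the mean SRA share of 4.60% lay within the LacZ spread of 4.70 ± 0.495% (SD, n = 3; two-sided exact permutation test, p = 0.9). SRA shares that were all lower than the LacZ shares were found for 2 of 23 chromosomes, or 8.70%, and chromosome 17 was not among them. The sign of this small difference turned when LacZ replicate 3 was left out.

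By distinct regions per Mb, measured up to the last peak of a chromosome in any list, chromosome 17 was rank 3 of 23 with 4.93 SRA regions per Mb and chromosome 16 was rank 5 with 4.56. Chromosomes 19 and 22 were ahead with 9.87 and 6.03. The LacZ peaks of the 3 lists gave chromosomes 17 and 16 the same ranks, 3 and 5, with 3.10 and 2.35 peaks per Mb. Across the 23 chromosomes, which share libraries within each list and are not replicates, SRA and LacZ densities were related with r = 0.93 (Pearson) and rho = 0.92 (Spearman). The ratio of the mean SRA share to the mean LacZ share was 1.29 on chromosome 16, rank 6 of 23, and 0.979 on chromosome 17, rank 14 of 23. It was 2.40 on chromosome 22 and 1.32 on chromosome 19. Relative to its protein-coding genes, chromosome 16 had 0.481 SRA regions per gene and chromosome 17 had 0.342, rank 7 and rank 20 of 23.

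**Figure D1:**
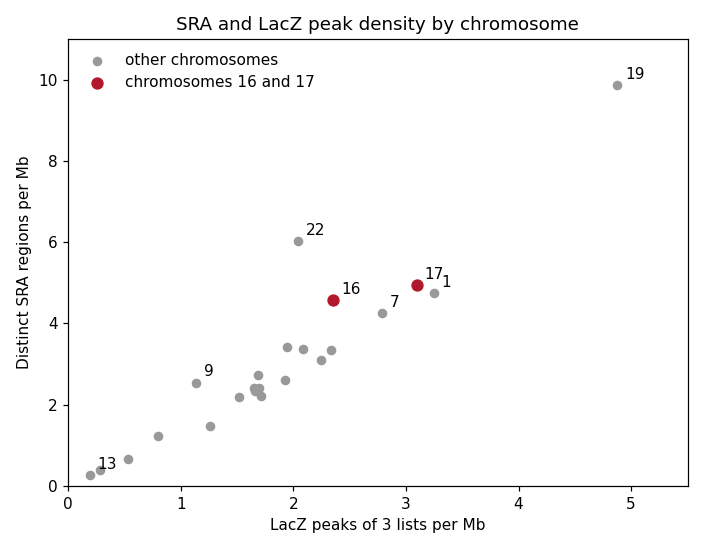
Distinct SRA regions per Mb (vertical axis) against LacZ peaks of the 3 lists per Mb (horizontal axis), with 1 point for each of chromosomes 1 to 22 and X. Chromosomes 16 and 17, in red, lie at 4.56 and 4.93 SRA regions per Mb, below chromosomes 19 and 22.

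The arms of these chromosomes differed most on chromosome 17, where the short arm was sparse in peaks of both probe sets. The arms were split at 36 Mb on chromosome 16 and at 24 Mb on chromosome 17, and each split fell in a stretch with no peak in any list, of 12.5 Mb on chromosome 16 and 3.09 Mb on chromosome 17. The short arm of chromosome 17 held 20, 21, and 18 peaks in the SRA lists and 10, 15, and 0 in the LacZ lists. Its long arm held 210, 197, and 230 SRA peaks and 102, 109, and 15 LacZ peaks. The long arm thus had 91.3, 90.4, and 92.7% of the chromosome 17 peaks in the SRA lists and 91.1, 87.9, and 100% in the LacZ lists, and the groups overlapped (two-sided exact permutation test, p = 0.9). In distinct SRA regions the short arm had 1.20 per Mb and the long arm 6.71 per Mb, a ratio of 0.179. LacZ peaks, which were not merged, gave a ratio of 0.284. In peaks of single lists the ratio was 0.245, 0.274, and 0.201 for SRA and 0.252, 0.354, and 0 for LacZ, and the groups overlapped. Of the protein-coding genes of chromosome 17 in GRCh38.p14, 29.4% lie on the short arm, whereas 6.50% of its SRA regions and 9.96% of its LacZ peaks did. That is 7.56 SRA regions per 100 genes on the short arm and 45.3 on the long arm. How many copies of each arm these cells carry was not analysed here.

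Of the short-arm peaks of chromosome 17, few lay in its middle. No list had a peak between bases 8356569 and 13479498, the longest stretch of that chromosome without one. The bin from 10 to 15 Mb held 1 SRA region, present in all 3 SRA lists, and no LacZ peak. The 26 short-arm regions were in all 3 SRA lists in 12 cases, or 46.2%, against 67 of 374 on the long arm, or 17.9%, and 21.5% in the genome. The highest mean score among the short-arm regions in all 3 lists was 53.3.

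Chromosome 16 showed the opposite order in the SRA lists and, less strongly, in LacZ lists 1 and 2. Its short arm held 135, 125, and 135 peaks in the SRA lists, or 3.99, 3.70, and 3.99 per Mb, and the long arm 106, 118, and 121, or 2.43, 2.70, and 2.77 per Mb. In LacZ lists 1 and 2 the short arm held 52 and 43 peaks, or 1.54 and 1.27 per Mb, and the long arm 56 and 50, or 1.28 and 1.14 per Mb. LacZ list 3 had 2 short-arm and 9 long-arm peaks. The long arm had 44.0, 48.6, and 47.3% of the SRA peaks of this chromosome and 51.9, 53.8, and 81.8% of the LacZ peaks, so every SRA list was below every LacZ list (two-sided exact permutation test, p = 0.1, and 0.2 after adjustment over 4 shares). By counting error alone (95% Wilson intervals), every SRA list overlapped LacZ lists 1 and 2. Only SRA list 1, with an upper bound of 50.3%, did not overlap LacZ list 3. The difference of the means was −15.9 percentage points, and without LacZ replicate 3, whose 81.8% rests on 11 peaks (95% Wilson interval 52.3 to 94.9%), it was −6.20 points. With the SRA lists counted as 1 sample, the exact permutation p was 0.5. For this chromosome the shares of SRA regions and of genes on the short arm lay close together, at 52.8% and 56.2%, and the share of LacZ peaks was 45.8%, with 45.2 SRA regions per 100 genes on the short arm and 51.9 on the long arm.

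**Figure D2:**
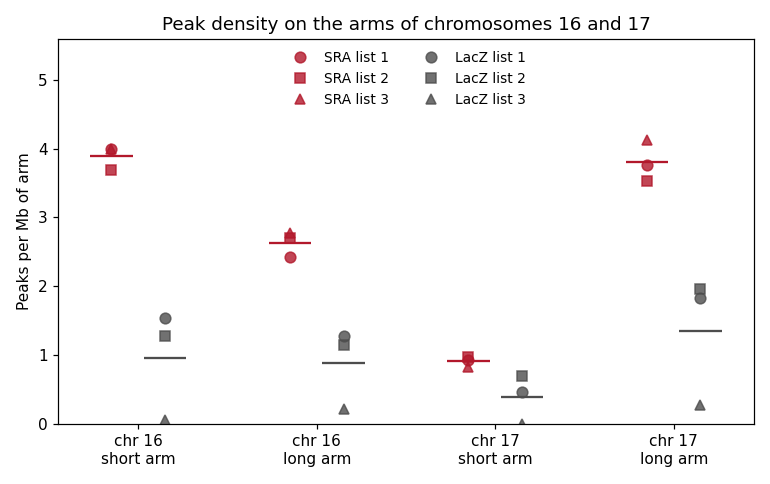
Peaks per Mb (vertical axis) on each arm of chromosomes 16 and 17, with 1 point per list and a bar at the mean of 3 lists, SRA in red and LacZ in gray. The SRA lists lie between 0.829 and 0.968 per Mb on the short arm of chromosome 17 and at 2.43 per Mb or above on the other arms.

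In bins of 5 Mb, SRA peaks of chromosome 16 were gathered toward both ends. The bins named first were chosen for their number of SRA regions, on both chromosomes, which favors a higher SRA than LacZ share in them, so their ratios are a description. The 3 bins with the most SRA regions were 0 to 5 Mb with 66 regions, 85 to 90 Mb with 53, and 65 to 70 Mb with 36, together 37.7% of the 411 regions on the chromosome. The median bin held 25 regions. In the first bin, peaks numbered 42, 36, and 44 with SRA probes and 11, 13, and 1 with LacZ probes. As a share of each list, this was 0.806% on average for SRA and 0.454% for LacZ lists 1 and 2, 1.78-fold higher for SRA. From 85 to 90 Mb, 28, 35, and 40 SRA peaks stood against 9, 3, and 1 LacZ peaks, or 0.562, 0.708, and 0.771% of the SRA lists and 0.336, 0.115, and 0.345% of the LacZ lists. LacZ lists 1 and 2 differed too much from each other there for 1 ratio to describe the bin. From 65 to 70 Mb there were 18, 21, and 23 peaks for SRA and 10, 11, and 4 for LacZ, and the ratio to LacZ lists 1 and 2 was 1.03. With LacZ list 3 included, the mean LacZ share there was 0.724%, above the mean SRA share of 0.410%. Of these 3 bins, the LacZ lists did not overlap the SRA lists in the first and the last along the chromosome, and overlapped them from 65 to 70 Mb.

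Between these bins lay stretches with few peaks. The bin from 60 to 65 Mb of chromosome 16 held 1 peak in each SRA list, at 1 region, and 1, 0, and 0 LacZ peaks, and no list had a peak between bases 60953331 and 66309820. The bin from 45 to 50 Mb, at the start of the long arm, held 1, 4, and 2 SRA peaks and 4, 6, and 0 LacZ peaks. From 75 to 80 Mb, peaks numbered 4, 5, and 3 with SRA probes and 5, 4, and 1 with LacZ probes, and the share of every SRA list was below that of every LacZ list. That call needs the 1 peak of LacZ list 3, which alone is 0.345% of that list. On the short arm, 25 to 30 Mb held 25, 16, and 21 SRA peaks and 6, 3, and 0 LacZ peaks, 2.42-fold higher for SRA than LacZ lists 1 and 2.

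On chromosome 17 the bins with the most SRA regions were 40 to 45 Mb with 71, 75 to 80 Mb with 64, and 35 to 40 Mb with 46, together 45.2% of the 400 regions. The same bins held 42.2, 47.7, and 47.6% of the peaks of the chromosome in the SRA lists, 33.0 and 26.6% in LacZ lists 1 and 2, and 6 of 15 peaks in LacZ list 3. From 40 to 45 Mb, 34, 37, and 41 SRA peaks stood against 17, 13, and 3 LacZ peaks. The SRA share there was 1.31-fold that of LacZ lists 1 and 2, and LacZ list 3 had a larger share than any SRA list, so the groups overlapped. From 75 to 80 Mb, near the end of the long arm, there were 40, 38, and 43 peaks for SRA and 8, 9, and 2 for LacZ. The mean share of 0.800% in the SRA lists was 2.49-fold that of LacZ lists 1 and 2, and the groups did not overlap. With LacZ list 3 included, the mean LacZ share was 0.444%, against 0.321% for LacZ lists 1 and 2.

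A pair of neighboring bins of chromosome 17 went the other way. From 55 to 60 Mb, peaks numbered 12, 15, and 9 with SRA probes and 10, 13, and 1 with LacZ probes. From 60 to 65 Mb the SRA lists held 9, 9, and 10 peaks and LacZ lists 1 and 2 alone held 12 and 15, although these lists are smaller, and LacZ list 3 held 1. The mean SRA share was 0.550-fold and 0.362-fold that of LacZ lists 1 and 2, and in both bins every SRA list was below every LacZ list. The same held from 25 to 30 Mb, at the start of the long arm, with 12, 11, and 14 SRA peaks against 11, 11, and 1 LacZ peaks. In each of these bins the call needs the 1 peak of LacZ list 3, which alone is 0.345% of that list.

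In all, the 3 SRA shares lay above the 3 LacZ shares in 8 of the 34 bins of chromosomes 16 and 17, or 23.5%, against 13.8% of 571 bins on chromosomes 1 to 22 and X. Of these 8 bins, 6 held at least 10 SRA regions, as did 23 of all 34 bins. The share was lower in every SRA list in 4 of 34 bins, or 11.8%, against 7.53% of the 571 bins. With bins shifted by 2.5 Mb, the bins above were 6 of 35, or 17.1%, against 93 of 581 in the genome, so the excess over the genome depended on where the bins began. The bins below were then 2 of 35, or 5.71%, against 6.37% in the genome, and their excess was also absent with bins of 10 Mb (5.26% against 7.92%) and without LacZ replicate 3 (14.7% against 20.7%).

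**Figure D3:**
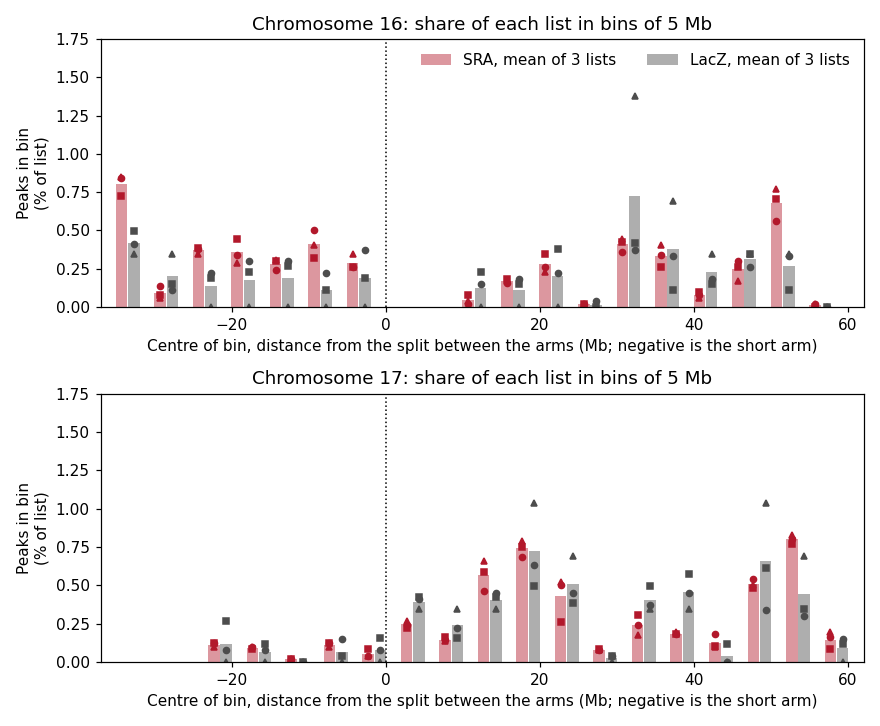
Share of each list's peaks in bins of 5 Mb (vertical axis, % of the list) along chromosomes 16 (top) and 17 (bottom), by distance of the bin's center from the split between the arms in Mb. Bars are means of 3 lists and symbols are single lists (circle, square, and triangle for lists 1, 2, and 3), SRA in red and LacZ in gray; the highest SRA bars are those of 0 to 5 Mb on chromosome 16 (0.806%) and of 75 to 80 Mb and 40 to 45 Mb on chromosome 17 (0.800 and 0.740%).

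Windows of 1 Mb were counted as well. The first Mb of chromosome 16, next to the alpha-globin window and without it, held 24 SRA regions, the most of any window on these chromosomes and rank 11 of 1933 windows with a region in the genome. The SRA lists had 18, 14, and 15 peaks there and the LacZ lists 2, 3, and 0. On chromosome 17 the densest windows were 42 to 43 Mb with 23 regions and 74 to 75 Mb with 22. They held 15, 8, and 12 and then 12, 12, and 14 peaks in the SRA lists, and 4, 6, and 1 and then 3, 4, and 1 in the LacZ lists. The last Mb before the last peak held 15 SRA regions on chromosome 16 and 15 on chromosome 17, whereas the first Mb of chromosome 17 held none and 1 LacZ peak.

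The strongest SRA peaks were ranked by the mean of the authors' score over the SRA lists, among the 176 regions present in all 3. The score is headed −log10 of the p-value but starts at 40 in every list, the value of 10 times −log10 for a p-value of 0.0001, and was used here as a rank. The choice of these regions rests on the score, so their scores are a description. The median over the regions in all 3 lists was 47.0 on chromosome 16 and 46.6 on chromosome 17, and 46.9 over all nuclear chromosomes and contigs.

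One peak on the long arm of chromosome 17, chr17:78805401-78805737, was far above the rest. Its score was 178.66 in SRA list 1, 184.91 in list 2, and 207.38 in list 3, a mean of 190.3, against 73.6 for the next region of the chromosome. It was rank 4 of the 1851 regions outside chromosome M that were in all 3 SRA lists. The nearest LacZ peak lay 49405 bp away, and like nearly all SRA regions it was overlapped by none. Other SRA peaks lay around it with much lower scores. Within 500000 bp on either side the SRA lists held 4, 8, and 5 peaks with it included, and the highest score among the others was 43.85, 50.58, and 51.25. The LacZ lists held 2, 3, and 2 peaks in the same stretch, with scores of up to 52.95.

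The next of chromosome 17 was chr17:39851424-39851804, with scores of 82.03, 56.96, and 81.67. It was followed by chr17:46956594-46956742 with a mean of 63.7, chr17:40938165-40938413 with 63.0, chr17:74700952-74701221 with 62.5, and chr17:40709236-40709382 with 62.03. The last of these varied most, from 41.44 in list 2 to 76.07 in list 3. The remaining 4 of the 10 strongest were chr17:27539389-27539637 (mean 61.2), chr17:63440515-63440713 (60.8), chr17:39748066-39748269 (59.0), and chr17:42421546-42421809 (58.9). All 10 lay on the long arm, as did 67 of the 79 regions of this chromosome in all 3 lists. The 11th region had a mean of 57.3, close to the 10th. No LacZ peak lay within 500 bp of any of them, as for all but 1.85% of the 811 regions.

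On chromosome 16 the strongest region was chr16:89938264-89938611, near the end of the long arm, with scores of 83.67, 86.75, and 97.31 and a mean of 89.2. It was followed by chr16:12502211-12502288 on the short arm, which is 78 bp wide and had the same score, 76.25, in all 3 lists. The third, chr16:33293813-33294270, lies close to the centromere and had scores of 60.67, 53.29, and 96.57, so that list 3 raised its mean of 70.2. The fourth, chr16:88877260-88877624, had scores of 51.74, 85.77, and 59.42 and a mean of 65.6. The others were chr16:66930180-66930321 (mean 63.9), chr16:53127180-53127332 (61.4), chr16:3545481-3545706 (61.4), chr16:23714632-23714880 (58.7), chr16:10594453-10594605 (57.3), and chr16:72660999-72661197 (56.7). The 10 were spread over both arms, 5 on each. The 11th had a mean of 54.8. No LacZ peak overlapped any of them, as for all but 0.986% of the 811 regions, and the nearest was 5637 bp away.

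Chromosomes 16 and 17 were present among the strongest regions of the genome about as often as among all. They held 2 of the 20 strongest regions in all 3 lists outside chromosome M, 9 of the 100 strongest, and 18 of the 200 strongest, against 176 of 1851, or 9.51%.

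**Figure D4:**
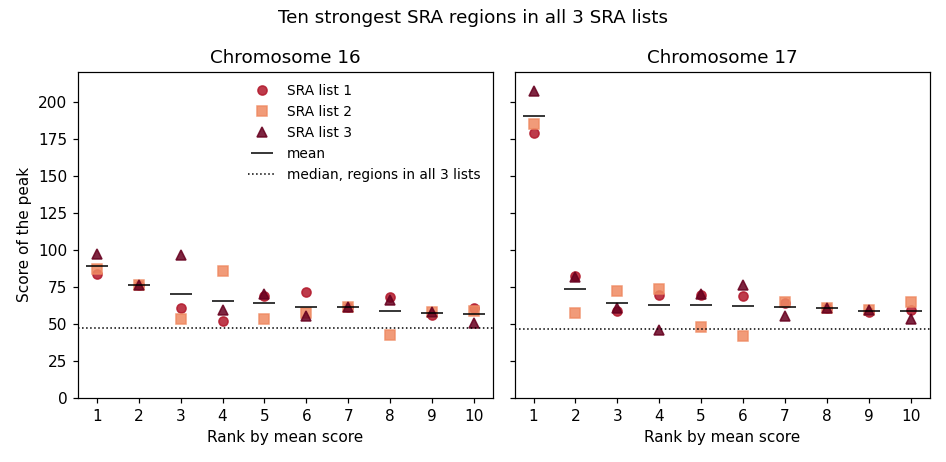
Score of the peak (vertical axis) in SRA lists 1, 2, and 3 for the 10 regions with the highest mean score on chromosome 16 (left) and chromosome 17 (right), by rank, with a dash at the mean and a dotted line at the median of regions in all 3 lists. The first region of chromosome 17 lies between 178.66 and 207.38 and every other point is under 100.

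The 3 widest SRA regions of both chromosomes lay together within 1 stretch of chromosome 17. They were chr17:41400075-41401232, 1158 bp wide, in SRA lists 2 and 3, chr17:41381516-41382458, 943 bp wide, in all 3 lists, and chr17:41466020-41466593, 574 bp wide, in list 2. Their mean scores were 51.7, 51.6, and 59.5. The first was the only SRA region over 1000 bp on these chromosomes, of 149 in the genome, and the median width of their SRA regions was 151 bp.

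Presence in several SRA lists was like that in the rest of the genome. Of the 811 regions, 362 came from 1 list, 273 came from 2, and 176 were common to the 3 lists. The share in all 3 lists was 21.7% (95% Wilson interval 19.002 to 24.7%, counting error only), against 21.5% of all 8658 regions in the genome. The share in 1 list was 44.6%, against 46.9%. Chromosome 16 had 97 of 411 regions in all 3 lists, or 23.6%, and chromosome 17 had 79 of 400, or 19.8%, with intervals that overlapped, 19.8 to 27.9% and 16.1 to 23.9%. Scores of all lists that held a region were equal to the second decimal in 81 of the 449 regions present in at least 2 lists, or 18.0%, against 749 of 4598, or 16.3%, in the genome. The median score of the peaks was 43.54, 43.98, and 44.32 in the SRA lists on these chromosomes and 43.84, 43.90, and 44.31 on all others.

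LacZ peaks overlapped 8 of the 811 SRA regions, or 0.986% (95% Wilson interval 0.501 to 1.93%), against 0.901% of all SRA regions. None of the 8 was in all 3 SRA lists. On chromosome 16 they were chr16:1565664-1565829 and chr16:46419634-46419911, each in SRA list 2 and overlapped by LacZ list 2, and chr16:84811386-84811548, in SRA list 1 and overlapped by LacZ list 1. On chromosome 17, chr17:36544821-36545026 was in SRA lists 2 and 3 and overlapped by LacZ list 1. LacZ list 2 overlapped chr17:42137760-42137971, by 5 bp, chr17:75033422-75033547, and chr17:78517689-78517809. LacZ list 3 overlapped chr17:46554841-46555046. The SRA scores of these regions ran from 40.03 to 63.66 and the LacZ scores from 40.45 to 57.86.

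The LacZ probes had strong peaks of their own. LacZ lists 1 and 2 shared 2 positions on these chromosomes and LacZ list 3 shared none with them. At chr16:48767058-48767172 LacZ list 2 had a score of 138.30, its highest in the genome, and LacZ list 1 had an overlapping peak with 84.72. At chr17:59805953-59806177 the score was 81.05 in LacZ list 1 and 69.82 at the overlapping peak of LacZ list 2. No SRA peak overlapped either, and the nearest were 379143 bp and 162755 bp away. The next in LacZ list 1 was chr17:27349023-27349236 with 74.99, and in LacZ list 2 they were chr16:1434993-1435171 with 79.47 and chr17:44914594-44914752 with 73.26. In LacZ list 3 the highest were chr16:69192168-69193180 with 61.15, chr17:74399507-74400496 with 61.11, and chr17:73519228-73520196 with 59.10. The first region of chromosome 17 named for SRA, with a mean of 190.3, was above every LacZ peak of these chromosomes, but on other chromosomes LacZ list 1 reached 181.71, above the score of 178.66 that this region had in SRA list 1. The 19 others ranked for SRA had means within the range of the LacZ scores.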

How the data were processed

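K562 chromatin was pulled down with SRA or LacZ probes, in 3 biological samples each, and sequenced single-end. The authors used hg19 for alignment and deposited MACS peaks per sample with a score for each peak. The processing notes also name CASAVA 1.8.2 and deepTools. The MACS version, the control of each list, and any pooling are not given in the sources used here. Starts counted from 0 were converted to count from 1.

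Members were peaks of chromosomes 16 and 17 outside the alpha-globin window. They and the lists were chosen with earlier results of these data known. Peaks sharing at least 1 bp were merged, and bins of 5 Mb took a peak by its midpoint. Shares per list were compared by two-sided exact permutation tests over lists. Named regions were, on each chromosome, the 10 of highest mean score in all 3 SRA lists, the 3 densest bins, regions overlapped by LacZ peaks, and the 3 highest peaks of each LacZ list; the widest regions, windows of 1 Mb, and other bins were added after their values were seen. Alternatives were other score thresholds, equal peak numbers, gaps of 500 bp, other totals and bins, omission of each list, and pairing by number. Merging and tests were checked on simulated lists. Depth is unknown, and Wilson intervals cover counting error only. Software was scipy 1.17.1, numpy 2.4.6, and pandas 2.3.3 under Python 3.11.15, with figures from matplotlib 3.10.9.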

Additional observations from a re-analysis of the deposited data

How the results depend on the processing

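The higher SRA share on chromosome 16 (1.10 percentage points) and the lower long-arm share there (−15.9 points) kept their direction under each alternative that could have turned it (the pairing and the SRA lists as 1 sample cannot), from 0.115 to 1.24 points and from −25.5 to −6.20 points. The lowest, 0.115 points, came with 290 peaks in every list, where the groups overlapped (exact permutation p = 1). With each list left out, the 2 differences ran from 0.981 to 1.22 and from −21.2 to −6.20 points. For chromosome 17 the differences had no fixed sign. The share differed by −0.0969 points, and by 0 with 290 peaks in every list, 0.140 without LacZ replicate 3, and 0.00023 without SRA replicate 2 (range −0.354 to 0.140 with each list left out). The long-arm share differed by −1.52 points, and by 10.7 with 290 peaks in every list and 1.98 without LacZ replicate 3 (range −4.06 to 1.98). With lists of the same replicate number as a block, the mean differences were the same, 1.10, −0.0969, −15.9, and −1.52 points (exact sign-flip permutation p = 0.25, 1, 0.25, and 1, where 3 pairs allow 0.25 at the lowest). Correlations of deviations over 571 bins for lists of the same number were 0.029, −0.014, and −0.029, so the numbers were not taken to pair the lists. None of these tests could pass 0.05.

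Bins with every SRA list above every LacZ list numbered 8. They were 19 of 77 with bins of 2 Mb (24.7%, against 18.7% in the genome) and 4 of 19 with bins of 10 Mb (21.1% against 12.9%). With a list left out they numbered 9 to 13 (26.5 to 38.2%, against 16.5 to 27.9% in the genome). Those below numbered 4, above the genome share, but 1 with bins of 10 Mb (5.26% against 7.92%) and 2 with shifted bins (5.71% against 6.37%), both under it, and 4 to 7 with a list left out. Without LacZ replicate 1 the bins above were 13 (38.2% against 27.9%) and those below were 7 (20.6% against 12.8%). Without LacZ replicate 3 those below were 5 (14.7% against 20.7%). The 176 regions in all 3 SRA lists became 84 when peaks under each list's median score were dropped, and 253 to 278 (270 without SRA replicate 1 and 278 without SRA replicate 2) when both remaining lists were enough. The 8 regions overlapped by LacZ peaks became 15 with gaps of 500 bp (1.85%, against 1.71% in the genome), 2 without peaks under the median score (0.478% against 0.991%), and 3 to 7 with a LacZ list left out, the lowest without LacZ replicate 2 (0.370% against 0.520%). With the highest score in any list as the rank, 7 of 10 regions on chromosome 16 and 8 of 10 on chromosome 17 stayed among the strongest. The causes were not tested.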

Other observations

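Neighboring SRA regions were a median of 78.9 kb apart on chromosome 16 (interquartile range 29.0 to 191.8 kb) and 75.5 kb apart on chromosome 17 (26.5 to 184.0 kb). A neighbor within 10 kb was found for 53 of the intervals on chromosome 16, or 12.9%, and 38 on chromosome 17, or 9.52%. An unlocalized contig of chromosome 17 held 1, 0, and 2 peaks in the SRA lists and 1, 0, and 0 in the LacZ lists. In the alpha-globin window, left out above, 1 position was in all 3 SRA lists, chr16:221854-222004, with scores of 57.07, 58.40, and 58.40, and LacZ lists 1 and 2 each had 1 peak elsewhere in the window.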
